A study of Mus musculus with 11 samples.

Results

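Within the transitional class of E-mu-BRD2 lymphomas, 2 samples from mice whose enlarged spleens were graded moderately severe (transitional 4 and 5) were set against 2 graded severe (transitional 1 and 2). The samples were taken by these recorded grades alone, and they are 4 of the 11 lymphoma arrays analysed here. All 11 samples came from mice with the E-mu-BRD2 transgene on the FVB background. In this transgene the immunoglobulin heavy-chain enhancer E-mu drives the double bromodomain protein BRD2 in B cells. For all 4 compared samples the labels record oligoclonal immunoglobulin, failure to nest as the clinical sign, and flow cytometry as not done. No treatment, age, sex or tissue of origin is given for them. The third transitional grade, mild, has 1 sample (transitional 3), and the 6 marginal lymphomas, graded marginal, mild or moderate, enter below as a range. Each sample is 1 array of bulk RNA, so that fewer cells of a type and less RNA per cell cannot be told apart. The labels do not say that the samples came from separate animals, so the p-values measure only the spread between these samples.

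BRD2 belongs to the BET family, whose bromodomains bind acetylated histones, and it takes part in transcription of E2F-driven cell cycle genes. The mouse spleen holds B cell follicles with adjoining T cell zones, and its red pulp holds macrophages and, unlike in the adult human, keeps the capacity to form red cells and granulocytes. Spleen size can therefore rise through lymphoid cells, through blood formation outside the marrow, or both.

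On the moderately severe arrays, transcripts of red cell precursors, of primary neutrophil granules and of cell division were higher than on the severe arrays. Transcripts of T cells, cytotoxic cells, interferon gamma targets, class I and class II antigen presentation and B cell identity were lower. Differences are given as moderately severe minus severe in mean log2(signal + 16). A difference was called at an adjusted p of 0.05 from limma, fitted over all 22626 probe sets. By that rule 1186 probe sets (5.24%) rose and 1770 (7.82%) fell on the moderately severe arrays. With 1 probe set per gene, 712 of 12393 genes (5.75%) rose and 1080 (8.71%) fell. The median difference over all genes was -0.25, so each list below is also read against that shift. The direction of the whole depends on scaling: 40.1% of the called probe sets were higher on the moderately severe arrays as reported, against 51.5% after quantile normalization (1294 higher, 1220 lower) and 67.3% with arrays centred on their medians (1879 higher, 912 lower). Leaving out 1 of the 4 compared arrays lowered the counts, to 491 higher and 935 lower without transitional 1, 755 and 842 without transitional 2, 343 and 671 without transitional 4, and 376 and 375 without transitional 5.

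The rule for large shared differences asked for a gap, the distance from the lowest array of the higher pair to the highest array of the lower pair. A gap of at least 1 log2 unit was found for 1155 probe sets (5.1%) higher and 1859 (8.22%) lower on the moderately severe arrays. Arrays of the pairs did not overlap at all for 20.6% of genes in the higher direction and 40.2% in the lower. Within pairs, transitional 4 and 5 correlated at 0.965 over all probe sets and transitional 1 and 2 at 0.928, while correlations across the pairs ran from 0.872 to 0.879. The median absolute difference was 0.33 inside the moderately severe pair, 0.38 inside the severe pair and 0.56 between the pair means. Median signals were 107.8 and 98.8 on transitional 4 and 5 and 128.5 and 151.0 on transitional 1 and 2. Control probe sets give the ratio of 3′ to 5′ signal, which moves with RNA quality. It lay between 0.64 and 0.7 for Gapdh and between 1.11 and 1.25 for actin on all 4 arrays. For pyruvate carboxylase, at signals of 52.3 to 371.1, it was 2.13 and 1.79 on transitional 4 and 5 against 0.52 and 0.72 on transitional 1 and 2. The part of this ratio in the results was not tested.

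Gene lists are named for what their members are known to mark, and a list is described by its counts and its median. Their members' promoters were searched for the short letters known from these pathways, since the members of most searched lists moved largely together. Type I interferon genes, also searched, moved both ways. One window for each of 4 pathways is shown: the erythroid member with the largest gap that holds both erythroid motifs, and otherwise the member with the largest gap whose match lies within 100 bases of the start. Each is the 250 bases before a RefSeq transcript start (GRCm38.p6, plus strand), and capitals mark the motif on either strand. Trim10, an erythroid RING finger protein, is shown at chr17:36869324-36869573 with the letters AGATAA of the Gata1 factor family (minus strand) and CACACCC (the box of Krüppel-like factors). H2-Oa, of the class II H2-O heterodimer, is at chr17:34092129-34092378 with GATTGG (Y box). Gbp2, an interferon-induced guanylate binding protein, is at chr3:142620413-142620662 with GAAA followed after any 2 bases by GAAA (interferon response element, minus strand). Orc1, of the origin recognition complex, is at chr4:108579204-108579453 with TTTCGCG (E2F site, minus strand).
Trim10: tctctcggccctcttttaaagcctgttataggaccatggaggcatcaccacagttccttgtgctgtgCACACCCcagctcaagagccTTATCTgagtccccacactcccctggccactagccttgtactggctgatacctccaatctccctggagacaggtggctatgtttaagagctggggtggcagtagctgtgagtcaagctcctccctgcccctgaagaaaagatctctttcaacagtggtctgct
H2-Oa: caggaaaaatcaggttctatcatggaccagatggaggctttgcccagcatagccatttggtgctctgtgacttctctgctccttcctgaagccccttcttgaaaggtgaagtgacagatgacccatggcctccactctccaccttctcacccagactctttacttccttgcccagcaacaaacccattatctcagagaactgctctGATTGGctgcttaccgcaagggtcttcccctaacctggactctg
Gbp2: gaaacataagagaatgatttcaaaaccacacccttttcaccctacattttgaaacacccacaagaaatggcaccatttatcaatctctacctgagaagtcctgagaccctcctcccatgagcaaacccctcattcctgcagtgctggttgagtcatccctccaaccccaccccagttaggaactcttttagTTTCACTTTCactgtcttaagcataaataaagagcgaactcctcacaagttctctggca
Orc1: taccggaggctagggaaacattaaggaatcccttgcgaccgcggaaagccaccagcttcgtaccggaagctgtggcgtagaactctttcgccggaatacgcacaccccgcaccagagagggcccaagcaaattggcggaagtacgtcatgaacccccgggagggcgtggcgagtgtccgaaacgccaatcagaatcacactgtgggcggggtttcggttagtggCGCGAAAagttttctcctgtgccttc

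Over all 32851 mouse promoter windows of this table, AGATAA was present in 9.99%, CACACCC in 6.93%, GATTGG in 14.6%, the interferon response element in 2.98%, TTTGGCG (the other E2F form searched) in 1.26% and TTTCGCG in 0.703%. Among windows of the lists' members, the interferon response element was present in 8 of 13 for interferon gamma targets (61.5%) and GATTGG in 6 of 9 for class II (66.7%). Class I windows held the interferon element in 1 of 11 (9.09%). Windows of type I interferon genes, a list without a common direction, held it in 6 of 18 (33.3%). TTTCGCG was present in 4 of 30 windows of replication genes and TTTGGCG in 3 of 30, against 1 and 0 of 27 windows of mitosis genes. AGATAA was found in 4 of 13 windows of erythroid membrane genes, 4 of 23 of erythroid regulators and 1 of 18 of haemoglobin and haem genes. CACACCC was found in 2, 5 and 1 windows of the same 3 lists. A match describes letters only, and no overlap between motifs was scored. Of the members on the array, 43 of 54 erythroid, 8 of 13 class II, 21 of 26 interferon gamma target and class I, and 51 of 59 replication and mitosis genes had a window.

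Red cell precursor genes gave the widest shared shift. In the list of erythroid membrane and skeleton genes 16 of 18 members on the array rose and 0 fell, with a median difference of 4.15. The haemoglobin and haem synthesis list had 15 of 18 risen (median 3.33), the list of erythroid transcription factors and receptors 15 of 18 (median 3.24) and the late maturation list 16 of 20 (median 2.57), with 0 fallen in each. The list of ubiquitin conjugation in red cell precursors had 10 of 13 risen (median 1.95).

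The erythroid regulators are described first. Signals are given in the order transitional 4 and 5, then transitional 1 and 2. Klf1, the erythroid Krüppel-like factor, read 13401 and 12158 against 123 and 424, a difference of 5.69 ± 0.74 (SE; limma adjusted p = 0.00346). Gata1, the master factor of the erythroid line, read 2973 and 2315 against 77.2 and 157. Both moderately severe arrays stood far above both severe ones for these factors, and above the highest marginal array as well (8726 for Klf1, 1516 for Gata1). Epor, the receptor for erythropoietin, read 1815 and 1750 against 75.8 and 97.0, with the 2 arrays of each pair close together. Trim10, shown above, read 11148 and 8624 against 114 and 434, a difference of 5.34 ± 0.67 (limma adjusted p = 0.00317). Hemgn, a nuclear regulator of red cell differentiation, read 13784 and 11200 against 304 and 599. The transferrin receptor gene Tfrc, which takes up iron for haem, also rose, from 922 and 2874 to 20704 and 15914. The cofactors Lyl1 (0.58), Ldb1 (-0.56) and Cbfa2t3 (-0.94) were the 3 members not called.

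Of the membrane and skeleton genes, Epb42, which anchors the skeleton to band 3, read 3739 and 3290 against 27.0 and 75.5, a difference of 5.81 ± 0.73 (limma adjusted p = 0.00317). Icam4, the Landsteiner-Wiener adhesion molecule, read 3966 and 2851 against 22.0 and 110. The blood group genes Kel and Rhd read 5175 and 4944 against 76.1 and 206, and 11748 and 9085 against 99.6 and 443. Transitional 1 was the lower of the severe arrays for each of these, and transitional 2 exceeded transitional 1 in 15 of the 18 members, by a median of 1.2. Slc4a1, which is band 3 itself, read 14927 and 12497 against 455 and 2167. The glucose transporter gene Slc2a1, which other cells also use, ran the other way without being called (-1.41, limma adjusted p = 0.0511).

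Haem synthesis genes rose at several steps of the pathway. Urod (uroporphyrinogen decarboxylase) read 9860 and 7276 against 491 and 543, a difference of 3.99 ± 0.48 (limma adjusted p = 0.00317). Cpox, the next enzyme, read 7227 and 4923 against 361 and 331. Slc25a37, the mitochondrial iron importer mitoferrin, read 14442 and 10331 against 441 and 904, and Abcb10, its partner in the inner membrane, 4796 and 3704 against 220 and 318. For these 4 genes the pairs were apart by gaps of 3.48 to 3.71. Fech, which inserts the iron, read 19478 and 14818 against 744 and 2006, so that transitional 2 was nearer to the moderately severe arrays than transitional 1. The alpha globin probe set read under 10 on all 4 arrays (9.5 and 4.6 against 5.2 and 7.9) and bears no information on adult haemoglobin, and the other adult globin genes were not analysed here. Embryonic Hbb-bh1 read 93.6 and 152 against 25.9 and 4.4 and was called.

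Among late maturation genes, the carbonic anhydrase genes Car1 and Car2 read 15150 and 8884 against 141 and 1312, and 25814 and 23122 against 1159 and 3638. Ube2l6 (difference 3.87) and Xpo7 (3.0), an exportin of maturing red cells, also rose. With single arrays left out, the lowest counts of erythroid calls were 13 of 18 in the haem and membrane lists, and 10 of 18 in the factor list and 10 of 20 in the late list, both without transitional 4.

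**Figure D1:**
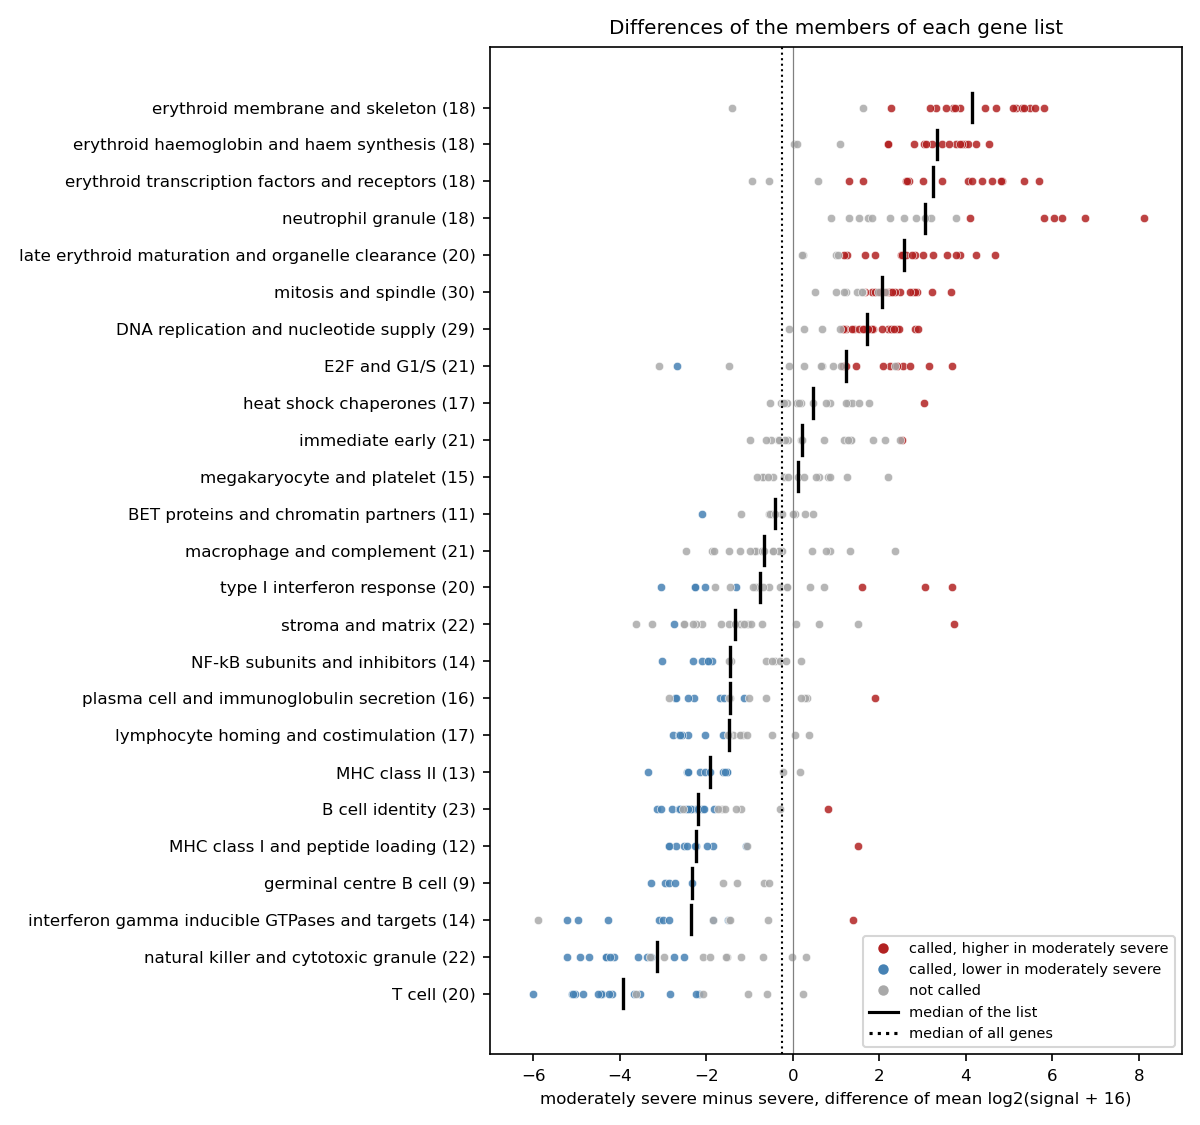
Difference between the moderately severe and severe pairs (horizontal axis, mean log2(signal + 16)) for every member of the 25 described lists, with the number of members on the array in brackets. Each dot is a gene, coloured where called by limma, the black tick is the list's median and the dotted line the median of all genes at -0.25. Erythroid lists (medians from 2.57 to 4.15) and the neutrophil granule list (3.06) lie at the top, and the T cell list at the bottom with -3.93.

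Neutrophil granule genes were higher, most evenly those of the primary granules. Of 18 members 6 rose and 0 fell, with a median difference of 3.06. All 18 had a higher mean on the moderately severe arrays. The pairs did not overlap for 12 of them, against 20.6% of all genes. Ctsg (cathepsin G), which had the largest gap among bright probe sets with a single gene (7.48), read 6318 and 9630 against 6.7 and 19.4, a difference of 8.11 ± 1.5 (limma adjusted p = 0.00954). Mpo (myeloperoxidase) read 10713 and 12950 against 47.2 and 174, and Elane (neutrophil elastase) 6787 and 6659 against 49.3 and 109. Prtn3 (proteinase 3) read 5885 and 7789 against 47.1 and 154. All of these belong to the primary granules laid down in promyelocytes, and on both moderately severe arrays they stood well above both severe arrays. Ms4a3, a gene of granulocyte precursors, read 3765 and 3846 against 23.2 and 103 and rose too.

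The secondary granule and mature neutrophil genes did not share this evenness. Ltf (lactoferrin) read 14332 on transitional 4 but 1872 on transitional 5, against 244 and 533, and was not called (limma adjusted p = 0.0688). Lcn2 (lipocalin 2) read 14700 and 1946 against 206 and 2471, so that transitional 5 lay below transitional 2. S100a8, abundant in mature neutrophils, read 33674 and 21489 against 3125 and 20439. Thus transitional 4 was the high array for these genes and transitional 1 the low one. Among the marginal lymphomas the highest signals matched or passed the moderately severe ones (11380 for Ctsg, 21290 for Mpo), while the lowest read 55.8 and 151.8. The number of neutrophil calls fell to 3 without transitional 1, 2 without transitional 4 and 1 without transitional 5. Megakaryocyte and platelet genes, the third blood line formed in the mouse spleen, had 0 of 15 members called and a median of 0.12, and 3 of them rose when transitional 2 was left out.

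Cell division genes were the second large group. All 30 mitosis and spindle genes had both moderately severe arrays above both severe ones, against 20.6% of all genes, and 20 of them were called (median 2.07). In DNA replication and nucleotide supply 25 of 29 rose (median 1.72), and in the E2F and G1/S list 11 of 21 rose and 1 fell (median 1.24). Aurka (Aurora A kinase) read 2824 and 2353 against 313 and 365, a difference of 2.87 ± 0.47 (limma adjusted p = 0.00601). Anln (anillin, of the cleavage furrow) read 2434 and 1880 against 116 and 208. Birc5 (survivin) read 8776 and 7688 against 878 and 1473. The 2 severe arrays were again ordered, with transitional 2 above transitional 1 in 29 of the 30 mitosis genes by a median of 0.58.

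For DNA synthesis, Rrm2, the regulated subunit of ribonucleotide reductase, read 14486 and 13065 against 1942 and 3237, a difference of 2.45 ± 0.5 (limma adjusted p = 0.0132). Cdc6, which loads the replicative helicase, read 2958 and 3666 against 351 and 584. Orc1, whose window is shown above, read 833 and 741 against 101 and 214. The pairs did not overlap for any of these 3 genes. Tk1 (thymidine kinase) rose by 2.89, while Pcna (1.08, limma adjusted p = 0.0811) was not called.

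Cyclins differed in direction within the E2F and G1/S list. Ccne2 (cyclin E2) read 2105 and 3242 against 174 and 209, and Ccne1 1269 and 1304 against 202 and 256, both called. Ccnd2 (cyclin D2), the D cyclin of stimulated B cells, was the member that fell, reading 847 and 336 against 4770 and 2579. Mitosis genes called were 1 without transitional 1, 11 without transitional 2, 1 without transitional 4, 5 without transitional 5 and 13 without marginal 2. Replication genes called were 4 without each of transitional 1, 4 and 5, and 20 without transitional 2. For E2F and G1/S the counts were 4, 7, 2 and 4 without transitional 1, 2, 4 and 5. Erythroid transcripts were high on the same 2 arrays, and their part in the cell cycle difference was not tested.

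**Figure D2:**
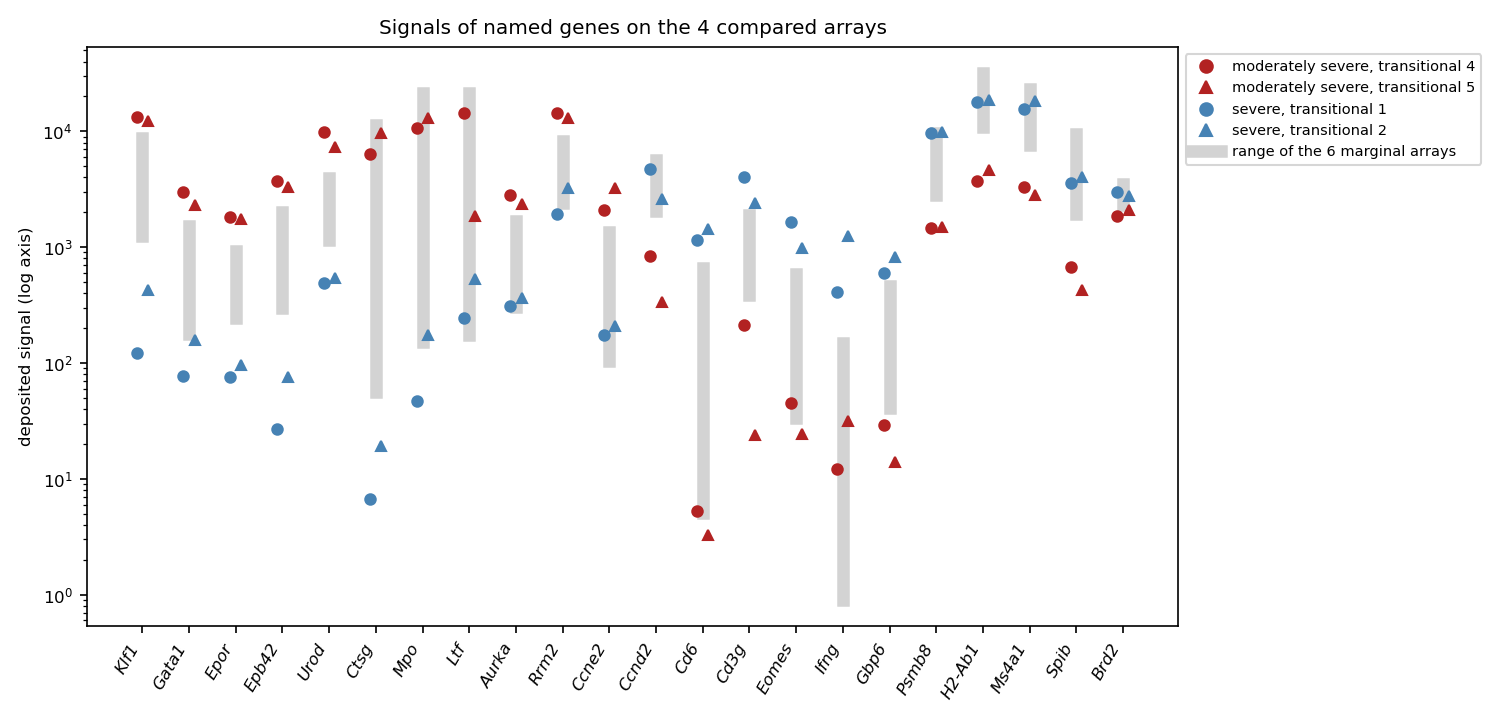
Deposited signals (vertical log axis) of 22 named genes on the 4 compared arrays, with 1 symbol per array and grey bars for the range of the 6 marginal arrays. On the moderately severe arrays the erythroid gene Klf1 (13401 and 12158 against 123 and 424) lies above its grey bar and the T cell gene Cd3g (213 and 23.9 against 4036 and 2382) below its own, while Cd6 on transitional 4 (5.3) lies at the lower end of its bar (5.1).

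The T cell list had the lowest median of the 25 lists described. Of 20 members 15 fell and 0 rose, with a median difference of -3.93. Cd6, a co-receptor on mature T cells, read 5.3 and 3.3 against 1151 and 1429, a difference of -6.0 ± 0.86 (limma adjusted p = 0.00431). Cd3g, a chain of the T cell receptor complex, read 213 and 23.9 against 4036 and 2382, and Cd3d 729 and 30.9 against 8923 and 4670. Cd5, carried by T cells and B1 cells, read 126 and 43.1 against 1829 and 2112. The pairs did not overlap for 18 of the 20 members, all lower on the moderately severe side, and overlapped for 2. Over all genes the share not overlapping in that direction was 40.2%. Within the moderately severe pair transitional 5 was lower than transitional 4 in 17 members, higher in 2 and equal in 1, with a median difference of -1.41. Both lineage co-receptors were low, with Cd8a at 123 and 31.1 against 3249 and 699 (called) and Cd4 at 56.5 and 6.0 against 281 and 799 (limma adjusted p = 0.0597). The brightest Zap70 probe set was not called (0.23), while another probe set of this T cell kinase read 41.5 and 6.6 against 976.3 and 669.3, so these disagree.

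Natural killer and cytotoxic genes followed, with 12 of 22 fallen, 0 risen and a median of -3.13. Eomes, a T-box factor of natural killer and memory CD8+ cells, read 45.0 and 24.3 against 1651 and 991 on its brightest probe set. Prf1 (perforin) read 68.6 and 62.6 against 643 and 1044, and Nkg7, a cytotoxic granule protein, 772 and 482 against 3632 and 3507. The severe arrays were close together for Nkg7 and less so for Prf1, and the moderately severe arrays lay clearly below for both genes. Ccl5, a chemokine of effector T cells, read 1191 and 212 against 11947 and 21243. The granzyme genes were less even, with Gzmb at 158 and 70.9 against 323 and 4333 and not called. Klra8, a natural killer receptor gene, was low on all 4 arrays (9.5 and 1.4 against 1.6 and 0.7), so the list's fall rests on its other members. Ncr1, a defining natural killer marker, was not called. Its difference turned positive without transitional 1 (0.56) and without transitional 4 (0.33).

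Leaving out transitional 5 reduced the calls to 10 of 20 T cell genes and 7 of 22 cytotoxic genes, and leaving out transitional 1 reduced the T cell calls to 9. Genes of the same kind were among the 15 largest gaps in the lower direction: Sh2d1a (SAP, an adaptor of T and natural killer cells), Crtam, Cxcr6, Gimap7 and Cd7 all had signed gaps between -4.31 and -3.72. Clec2d, a lectin-like ligand of natural killer receptors, read 156 and 115 against 3940 and 4997. With Ms4a1 it had the smallest adjusted p of the whole fit (limma, 0.00259).

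Ifng itself, the cytokine interferon gamma, read 12.1 and 31.6 against 410 and 1259 (difference -4.33 ± 1.05, limma adjusted p = 0.0258). Of 14 interferon gamma inducible GTPases and targets 8 fell and 1 rose, with a median of -2.36. Gbp2, shown above, read 179 and 75.4 against 2626 and 6477 on its brightest probe set, a difference of -4.96 ± 0.69 (limma adjusted p = 0.00411). Gbp6 read 29.1 and 14.1 against 599 and 819, and Iigp1, another GTPase of this response, 111 and 65.8 against 2226 and 6551. Transitional 2 was the higher severe array for all of these. Irf1, the factor that relays the signal, read 332 and 501 against 3127 and 3639. Cd274 (PD-L1), which restrains T cells, read 99.0 and 93.0 against 543 and 1180. The chemokine gene Cxcl9 reached 17543 on transitional 2 but 355 on transitional 1, against 46.6 and 13.1, and was not called (limma adjusted p = 0.0544). Irgm2 was the one that rose (2216 and 1370 against 638 and 676). The number fallen dropped to 4 without any one of transitional 2, 4 and 5.

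Type I interferon genes moved both ways, with 3 of 20 risen, 5 fallen and a median of -0.75. Rtp4 read 41.3 and 29.1 against 410 and 396 and fell, as did Ifit3 and Mx1. The antiviral genes Rsad2 (viperin, 6082 and 7358 against 237 and 1047) and Isg20 (10377 and 8278 against 1182 and 1014) rose instead, and Cmpk2 with them. No common direction was therefore seen in this list, and without transitional 5 there were 0 risen and 1 fallen, without transitional 4 there were 1 and 1, without transitional 2 there were 3 and 2, and without transitional 1 there were 2 and 3.

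Antigen presentation was lower on both moderately severe arrays. In class I and peptide loading 10 of 12 fell and 1 rose (median -2.24), and in class II 11 of 13 fell and 0 rose (median -1.92). Psmb8 and Psmb9, inducible subunits of the immunoproteasome, read 1469 and 1497 against 9631 and 9857, and 909 and 832 against 6399 and 6410. The arrays of each pair nearly coincided for these genes, whose differences were -2.7 ± 0.29 and -2.86 ± 0.4 (limma adjusted p = 0.00317 and 0.00411). Tap1, the peptide transporter, read 261 and 251 against 1697 and 2260. The classical heavy chain H2-K1 fell from 20999 and 29088 to 7940 and 5994, and the light chain B2m from 25848 and 29194 to 13091 and 12887. H2-T24, a nonclassical class I gene, was the member that rose (988 and 803 against 306 and 302).

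Of the class II genes, Ciita, the coactivator that switches the locus on, read 130 and 127 against 809 and 713, a difference of -2.42 ± 0.55 (limma adjusted p = 0.0196). H2-Ab1, a class II chain, read 3730 and 4645 against 18047 and 18802, and H2-DMa, which loads peptides, 957 and 756 against 4446 and 4913. H2-Oa, shown above, read 571 and 509 against 3795 and 2346. The pairs did not overlap for 11 of the 13 genes, all lower on the moderately severe side, against 40.2% of all genes in that direction. These calls rested on all 4 arrays: without transitional 1, 2, 4 and 5 they numbered 3, 1, 0 and 1, and they were 7 without marginal 2, without the intensity trend in limma or with arrays centred on their medians, while the class I calls numbered 8, 6, 6 and 6.

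B cell genes were lower as well. In B cell identity 15 of 23 fell and 1 rose (median -2.2). Ms4a1 (CD20) read 3313 and 2812 against 15621 and 18155 on its brightest probe set, a difference of -2.46 ± 0.29 (limma adjusted p = 0.00317). Spib and Pou2af1, a factor and a coactivator of B cells, read 671 and 428 against 3613 and 4052, and 1124 and 549 against 7176 and 6108. Cd79b, of the B cell receptor, read 2153 and 736 against 12120 and 10446. All 4 genes were lower on transitional 5 than on transitional 4, and both arrays lay below the lowest marginal array (7589 for Ms4a1, 1925 for Spib). Cd24a, which red cell precursors also carry, was the one that rose (26555 and 24860 against 14815 and 14366). The erythroid lists moved the other way on the same arrays, and their part in the lymphocyte results was not tested. The fall was called for 10 of 23 without transitional 1, 11 without transitional 2, 10 without transitional 4 and 4 without transitional 5.

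Germinal centre genes had 5 of 9 fallen (median -2.34), among them Fas, the death receptor (40.2 and 66.0 against 504 and 510), Il21r and Mef2b. The count was 1 without transitional 4 and 3 without transitional 5. In the plasma cell list 7 of 16 fell and 1 rose (median -1.46). Creld2, an endoplasmic reticulum protein, read 661 and 766 against 5083 and 4336, and Prdm1 (Blimp-1) 84.1 and 38.6 against 351 and 335. Jchain, the joining chain of secreted immunoglobulin, read 10479 and 13864 against 24911 and 3670 and was not called. Its severe arrays lay on both sides of the moderately severe ones. Plasma cell calls were 2 without transitional 1, 3 without transitional 4 and 4 without transitional 5, with arrays centred on their medians or with the 5 transitional arrays alone. The plasma cell list also held Tent5c, which rose (8550 and 6637 against 2573 and 1586).

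Receptors and signalling genes of lymphocytes shared the direction. In homing and costimulation 7 of 17 fell (median -1.47), led by Cxcr5, the receptor that brings B cells into follicles (310 and 392 against 2338 and 2644), and Cd40 (165 and 220 against 1280 and 1122). In the NF-kB list 6 of 14 fell (median -1.45). Traf1, an adaptor of TNF receptors, read 71.0 and 71.5 against 791 and 612, and Birc3 854 and 602 against 3134 and 4196. By limma, 0 members of either list rose. Without transitional 5 the calls were 2 and 3, and those of the NF-kB list were 3 without transitional 2.

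Brd2, the gene of the transgene's product, read 1844 and 2077 against 3001 and 2763 on its brightest probe set, a difference of -0.55 ± 0.27 (limma adjusted p = 0.21). The other probe set read 486 and 578 against 751 and 610 (-0.34, limma adjusted p = 0.564). Both moderately severe arrays were below both severe ones on each, with signed gaps of -0.41 and -0.08, and neither probe set was called. Over all genes 40.2% did not overlap in that direction, and the median difference was -0.25. The array does not separate transgene from endogenous transcript. Of 11 BET proteins and chromatin partners 1 fell, Brdt, the testis family member, at signals of 3.0 and 2.5 against 53.9 and 76.4, and it was not called without any one of the 4 arrays.

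Outside the lists, Ctsf (cathepsin F) had the largest gap after Ctsg, with 1822 and 1164 against 1.9 and 3.5 (6.3 ± 0.67, limma adjusted p = 0.00317). Ptdss2, which makes phosphatidylserine, read 1010 and 943 against 4.3 and 6.3 on the probe set with its largest gap. Its 6 probe sets in the upper 60% by mean had differences from 2.65 to 5.54. Plek2, a pleckstrin of red cell precursors, read 1872 and 1229 against 24.7 and 7.5, and Cox6b2, annotated as the testis form of a respiratory subunit, 7589 and 4796 against 91.3 and 146. The moderately severe arrays exceeded the highest marginal array in each case. In the lower direction, Fscn1 (fascin, an actin bundler of dendritic cells) read 6.9 and 38.0 against 1060 and 1578, a difference of -5.22. Its other probe set in the upper 60% by mean differed by -1.16. Abcb1a, a drug efflux pump, read 16.1 and 13.5 against 558 and 705. Tcf4, the E protein of B and plasmacytoid dendritic cells, read 261 and 243 against 2263 and 5223. The remaining 20 lists, without ubiquitin conjugation, had at most 3 members risen and at most 4 fallen each. Over all genes 5.75% rose and 8.71% fell. The medians of these lists ran from -1.74 (4 sex-linked transcripts) to 1.52 (core histones, with 3 of 8 risen).

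The severe pair was less alike than the moderately severe pair, and the markers of some cell types were split between its arrays. Every one of 21 macrophage and complement genes was higher on transitional 2 than on transitional 1, by a median of 2.6. C1qa, of complement, read 8060 on transitional 2 and 128 on transitional 1, against 565 and 596 on transitional 4 and 5. Csf1r, the macrophage growth factor receptor, read 10089 and 508 on transitional 2 and 1, against 1421 and 1951. The moderately severe arrays thus lay between the 2 severe ones, and none of the macrophage list was called. Without transitional 1, 7 of 21 fell, and without transitional 2, 1 of 21 rose. Stroma and matrix genes showed the same split in 21 of 22 members (median 2.59), with Dcn (decorin) at 1759 on transitional 2 and 54.4 on transitional 1. Here 1 gene rose and 1 fell (median -1.33), while 11 fell without transitional 1. Col5a1, a collagen chain, was the one that rose (1204 and 1082 against 22.9 and 179).

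Transitional 1 was instead rich in certain immunoglobulin transcripts. The Igk probe set named by rule read 19023 on transitional 1 and 4.5 on transitional 2, Igkv4-72 14795 and 42.7, and Igkv9-120 12724 and 54.5. Many kappa variable genes are similar in sequence, so part of the signal of 1 may come from another. On transitional 4 and 5 the same probe sets read 4901 and 3905, 570 and 619, and 1822 and 3137. These probe sets were chosen for their split in the severe pair, among those that differed by under 1 between transitional 4 and 5. The closeness of those 2 arrays is therefore no separate result. Igk has 4 probe sets in the upper 60% by mean. Between the pairs 2 of them were higher and 2 lower on the moderately severe arrays (-1.74 to 2.81).

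The moderately severe pair differed in stress-responsive genes. In 20 of 21 immediate early genes transitional 5 was higher than transitional 4, by a median of 1.65, and in 16 of 17 heat shock chaperones, by 0.79. Fosb read 1104 on transitional 5 and 32.0 on transitional 4, and Atf3 3085 and 110. On the severe arrays they read 53.2 and 104, and 72.1 and 128, near transitional 4. Neutrophil attractant Cxcl2 read 5908 on transitional 5 and at most 74.4 on the other 3 compared arrays. Only Ier3 of the immediate early list (1563 and 4653 against 261 and 798) and Dnajb4 of the chaperones (2232 and 3654 against 327 and 347) were called between the pairs. Without transitional 4 there were 5 and 4 calls, and without transitional 5 there were 0 and 0. Xist, the RNA of the inactive X chromosome, read 4099.2 on transitional 4 and 37.6 on transitional 5, against 45.0 and 45.4, and the Y-linked Eif2s3y read 3.3 and 1114.6 against 1066.5 and 279.8. By these transcripts transitional 4 stands apart from the other 3 arrays, and sex is not in the labels.

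**Figure D3:**
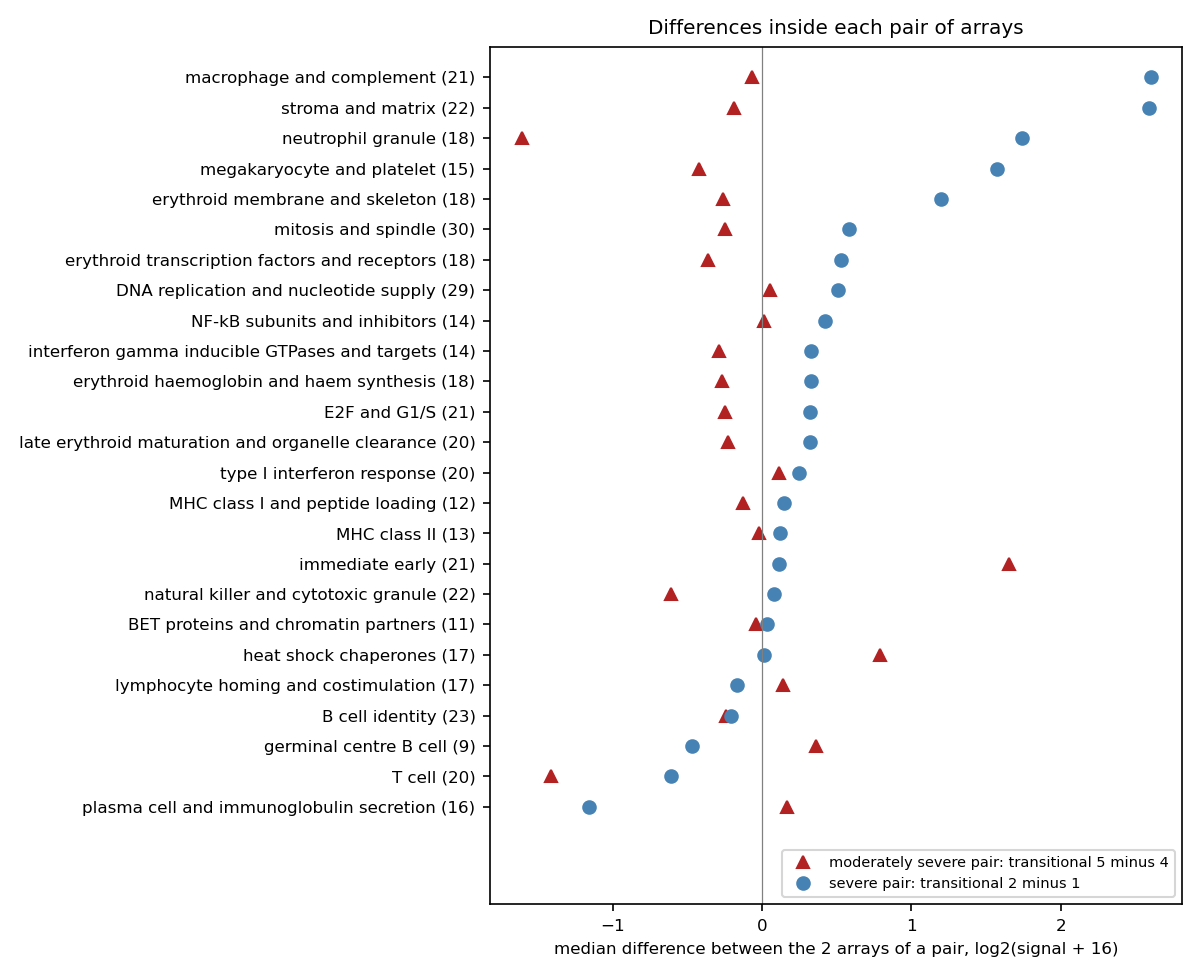
Median difference inside each pair (horizontal axis, log2(signal + 16)) for the 25 described lists, with transitional 5 minus 4 as triangles and transitional 2 minus 1 as circles. Circles reach 2.6 for macrophage and 2.59 for stroma genes, and triangles reach 1.65 for immediate early genes and -1.61 for neutrophil granule genes.

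The other 7 arrays place the contrast. For each list a score was taken as the median over members of the log2 deviation from the mean of the 11 arrays. On the erythroid membrane list transitional 4 and 5 scored 2.33 and 1.91, transitional 1 and 2 -3.0 and -1.36, and the mild transitional 3 -1.85, with the marginal lymphomas from -0.72 to 1.39. For T cells the scores were -1.23 and -2.94, then 2.09 and 1.18, then 0.65, with marginal arrays from -0.94 to 1.01. The mild sample was thus nearer to the severe pair on both lists, and the levels did not follow the order of the grades. For B cell identity both moderately severe arrays (-1.8 and -2.16) were below all others, of which the lowest was -0.29.

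Over the 1155 probe sets with a gap of at least 1 in the higher direction, transitional 3 lay nearer to the moderately severe mean in 5.37%. Marginal 1 did so in 78.8% and marginal 3 in 73.2%, but marginal 4 in 9.96%. For the 1859 in the lower direction the shares were 17.2% for transitional 3, 45.6% for marginal 1, 34.7% for marginal 3 and 15.2% for marginal 4. Marginal 1 and 3 were also the arrays that correlated best with transitional 4 after transitional 5 (0.951 and 0.95). These 2 arrays therefore shared more of the higher set than of the lower one with the moderately severe pair, while marginal 4 shared little of either.

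**Figure D4:**
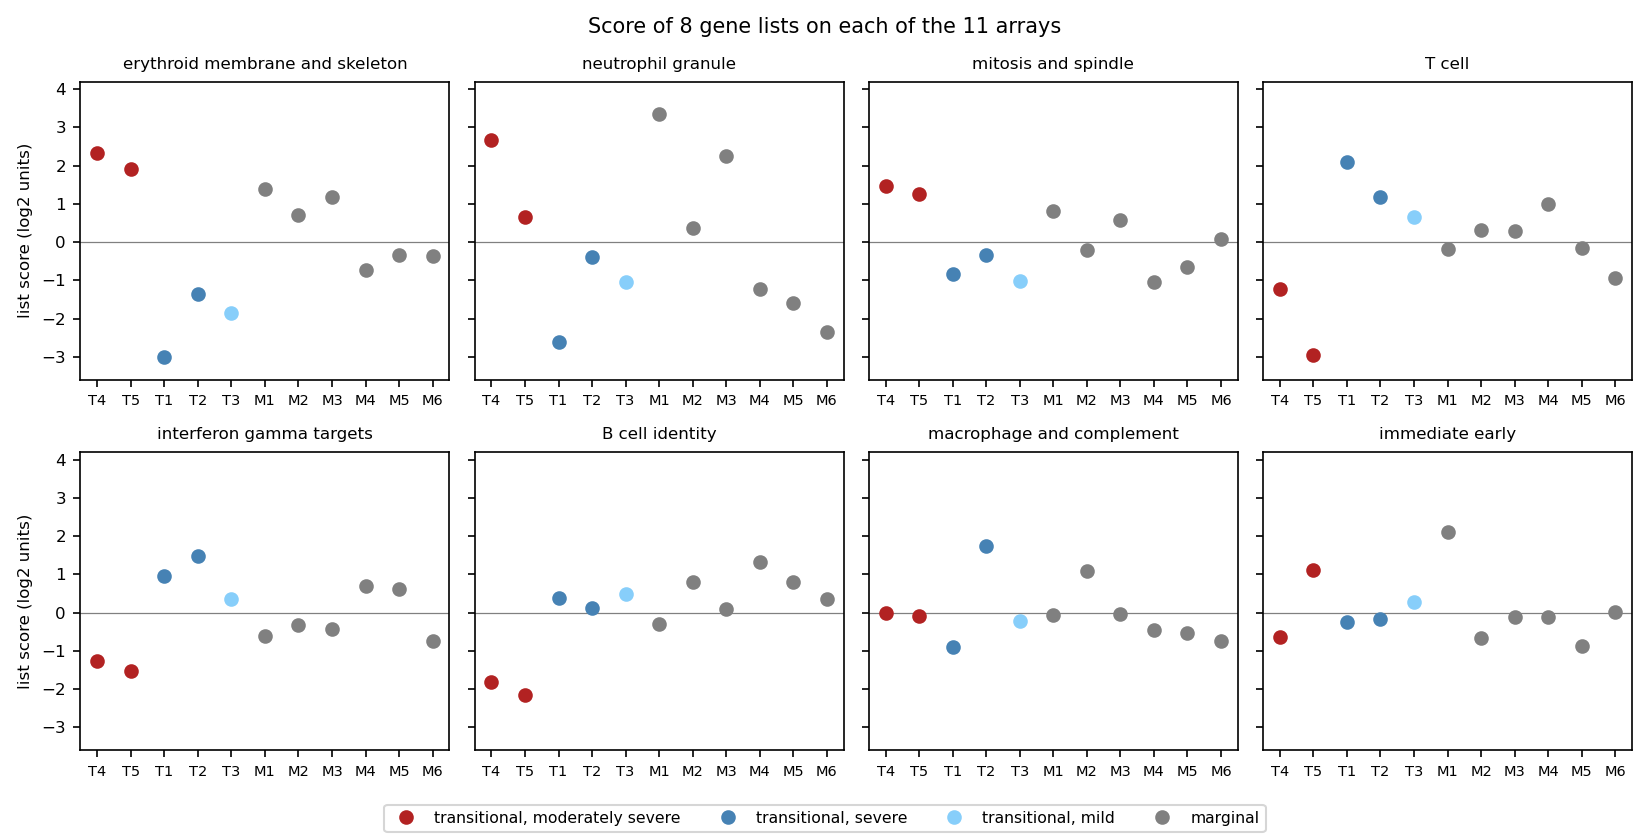
Score of 8 lists on each of the 11 arrays (vertical axis, log2 units; T for transitional and M for marginal samples), 1 point per array. Transitional 4 and 5 hold the highest scores for erythroid membrane genes (2.33 and 1.91) and mitosis and the lowest for T cell and B cell genes, while the macrophage score is highest on transitional 2 (1.75).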

How the data were processed

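RNA of 11 E-mu-BRD2 lymphomas was measured on 11 expression arrays with 22690 probe sets. The values deposited by the authors are linear intensities, and the submitters' processing notes name MAS5 as the tool behind them. The MAS5 version and settings are not given in the sources used here. Per the labels' protocols, cDNA was primed with poly-dT. The trimmed mean was 500.2 on each array, as global scaling gives, and such scaling hides shifts common to most transcripts. No scan or batch record was used.

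From the deposited intensities, the 64 AFFX controls were removed, and log2 was taken after adding an offset of 16. Genes were named only from the 20380 probe sets with 1 gene in GEO's platform annotation, updated to RefSeq symbols of GRCm38.p6; 691 had several and 1555 none. In lists the probe set with the highest mean over 11 arrays stood for a gene, 12393 in all. The contrast was fitted with limma 3.58.1 in R 4.3.3 on all 11 arrays, each class and grade a group, with an intensity trend and two-sided Benjamini-Hochberg adjusted p 0.05. The spread had 5 residual degrees of freedom and 4.7 prior ones. An exact permutation test of 2 against 2 cannot go below p = 0.333, so none is given. The fit was tested on simulated data for this contrast over 22626 probe sets. It recovered 49 of 100 probe sets changed 4-fold and 92 of 100 changed 16-fold, with 6 false calls. So few changed probe sets do not copy the real contrast, where 1186 rose and 1770 fell. The simulated counts therefore give no rate of recovery or of false calls for the results above. The number of arrays limits the precision, and with 2 per group each value is a pair of signals.

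The 46 lists hold 883 genes, of which 753 were on the array, and some genes stand in several. Named genes were Brd2; the 15 with the largest gap (upper 60% by mean) and the 5 with the smallest p in each direction; 4 members with the largest gap of each described list; defining cell type markers; and the 5 that differed most within each pair. Other members named were chosen after their values were seen. Members and lists were chosen with earlier results of these data known. Promoter windows are from RefSeq. Alternatives covered the offset, scaling, filter, samples, variance model, probe set choice and leaving out each array; list calls under these were added after seeing the data.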

Additional observations from a re-analysis of the deposited data

How the results depend on the processing

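No paired analysis was made. The sample numbers, 1 and 2 against 4 and 5, run through the transitional class and so bear no information on pairing. Over all settings that left out 1 array, the called probe sets ranged from 343 to 1243 higher and from 375 to 1885 lower on the moderately severe arrays. Centring arrays on their medians gave 1879 higher and 912 lower, and gap counts of 1826 and 973. An offset of 64 gave 1143 gaps in the lower direction. Gap counts ranged from 1543 to 1880 higher and from 2738 to 3620 lower when 1 compared array was left out, which widens gaps by construction. For a group left with 1 array, that array was assumed to vary like the other groups.

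List medians were followed relative to the median of all genes in the same setting. Leaving out 1 compared array moved the median of erythroid membrane genes between 3.69 and 5.31, of T cell genes between -4.49 and -2.84, of plasma cell genes between -2.06 and -0.91, and of germinal centre genes between -2.68 and -1.29. It moved interferon gamma targets between -3.02 and -1.97, type I interferon genes between -0.69 and -0.14, homing genes between -1.94 and -1.23, NF-kB genes between -1.46 and -0.9, and E2F and G1/S genes between 1.41 and 1.89. The direction changed for megakaryocyte (-0.68 to 1.25), macrophage (-2.04 to 1.17), stroma (-2.56 to 0.04) and immediate early genes (-0.32 to 1.66), and the chaperones ranged from 0.25 to 1.37. An offset of 64 gave -2.23 for cytotoxic and -0.27 for type I interferon genes, an offset of 1 gave -2.55 for germinal centre and 1.82 for E2F and G1/S genes, and quantile normalization gave 0.36 for chaperones. For these values the cause was not tested.

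Among the probe sets named by rule, 65 of 247 lost their call without transitional 5, 58 without transitional 4, 51 without transitional 1 and 35 without transitional 2. Under quantile normalization 5 lost it and with median centring 9. When 1 compared array was left out, the difference changed sign for 21 of the 247 named probe sets. Of these, 18 were called neither as reported nor after the change, among them Vcam1 (2.4 without transitional 2), Fosb (-0.93 without transitional 5) and Eif2s3y (1.0 without transitional 4). The other 3 were Igk (between -2.12 and 7.74), Igkv9-120 (between -2.40 and 5.09) and Igkv4-72 (between -4.6 and 3.38), the 2 values of each coming without transitional 1 or 2.

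A missed threshold with 2 arrays per grade does not show that a gene was equal. The spread behind the p-values rests on 5 degrees of freedom, 3 of them from the marginal lymphomas. Grade, sample and any processing batch cannot be told apart, and probe sets at low signal bear only loosely on level.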
